A study of Arabidopsis thaliana with 22 samples.

Results

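Roots of Arabidopsis thaliana that had been on fresh agar for 2 h were compared with roots of plants that were not transferred. The comparison used 6 of the 22 arrays of a study of sulfate limitation, chosen by their labels and not by any measured value. All 6 samples were total RNA from roots of Col-0, the standard laboratory accession, taken from plants that were 10 days old. Of these, 4 came from plants moved to MGRL agar, a defined mineral medium, for 2 h: 2 on medium with 1500 uM sulfate (called replete) and 2 on medium with 0 uM sulfate (called sulfate-free). The other 2 carry the title S1500_0H and had no treatment, and are called untreated. Each group has an array labelled A and an array labelled B. Whether these letters stand for separately grown plants is not stated, so the p-values rest on differences between arrays that may be no more than technical. Transfer itself, 2 h of elapsed time with its change in time of day, and a fresh medium were applied together, and their effects cannot be told apart in these samples.

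Moving a seedling between agar plates touches and bends the root, exposes it briefly to air and light, and brings it onto a new surface. As background, touch and small wounds are known to raise calcium in root cells and to switch on transcription factors of stress signalling, enzymes that make or break down jasmonate, a stress hormone, and proteins that remodel the cell wall. Roots also carry a circadian clock, so that transcripts of clock genes change within hours without any treatment.

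After 2 h, 743 of 22746 probe sets rose (3.27%) and 512 fell (2.25%) at an adjusted p under 0.05, 1255 in all (5.52%). A probe set is a group of short probes meant to read 1 transcript together, although the annotation lists several genes for 503 of them. Its value is a MAS5 signal on a linear intensity scale. Differences are on the log2(signal + 11) scale, on which the 11 damps changes among dim probe sets and so understates them. The rises were larger than the falls. Of the rises, 210 were over 2-fold and 30 over 4-fold, against 40 and 1 of the falls, and the median log2 difference was 0.74 for rises and −0.58 for falls. Counting 1 probe set per gene over the 13350 genes that the annotation names singly, 369 rose (2.76%) and 260 fell (1.95%). The median difference of all probe sets was −0.02.

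**Figure D1:**
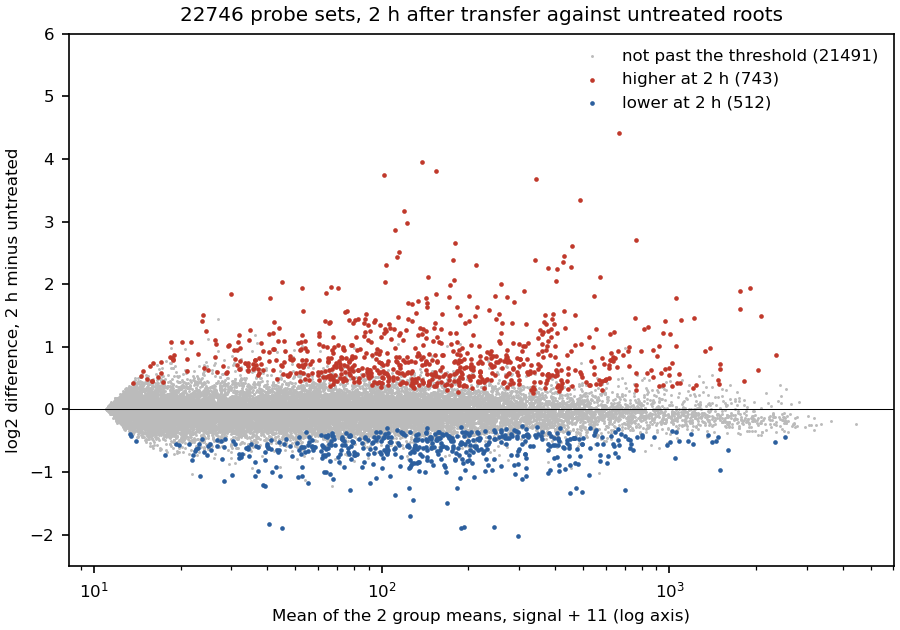
Each point is 1 of 22746 probe sets, with its mean signal + 11 on a log axis and its log2 difference between roots 2 h after transfer and untreated roots on the other axis. The 743 rises (red) reach 4.42 and the 512 falls (blue) reach −2.02.

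The 6 arrays were alike in scale. Their median signals lay between 42.45 and 43.86, and they correlated over probe sets with r between 0.971 and 0.991. The 2 media did not differ past the threshold in any probe set at 2 h. In limma's fit with the letter as a factor 0 probe sets (0.0%) passed, the lowest adjusted p was 0.999894, and 915 (4.02%) had an unadjusted p under 0.05. The untreated group rests on 2 arrays, and the counts depend on both. Without untreated array A, 314 rises and 97 falls were called, and without untreated array B 477 and 268. Of the other arrays, leaving out sulfate-free array B gave 292 falls and leaving out replete array B gave 317. Over all probe sets, the difference computed from the A arrays alone and that from the B arrays alone correlated with r = 0.557, as a description across 22746 probe sets that share the arrays' scaling and are not independent.

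**Figure D2:**
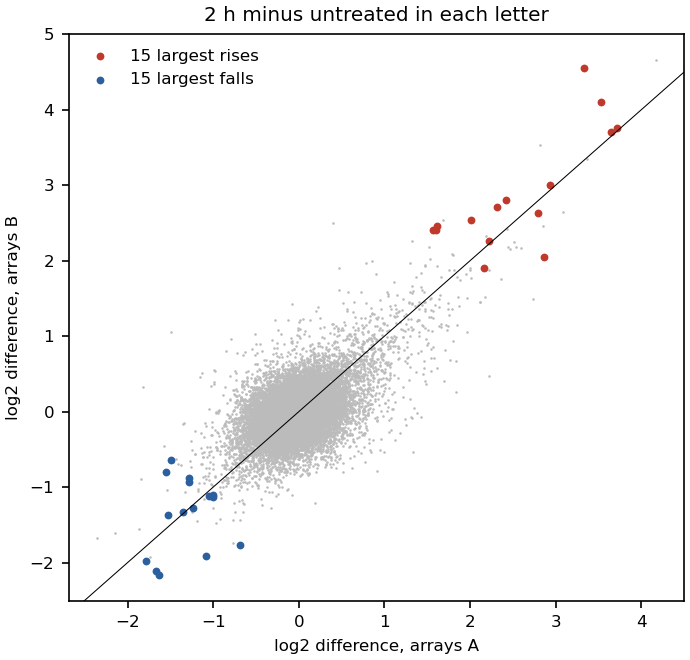
Each point is a probe set, with its log2 difference (2 h minus untreated) from the A arrays on the horizontal axis and from the B arrays on the vertical axis; the line marks equal values. The 15 largest rises (red) and 15 largest falls (blue) have the same sign in both letters, which the rule that chose them fixed. Over all probe sets r is 0.557.

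Among genes whose symbol in the gene table is not a bare locus number, the largest rise was that of PRN, a pirin, a member of a protein family of the cupin fold. Its signal was 128 and 108 in untreated arrays A and B. At 2 h it was 717 and 739 on replete medium and 742 and 900 on sulfate-free medium, again for A and B. All 4 arrays at 2 h were far above both untreated arrays, and the media lay close together. PRN rose by 2.61 ± 0.13 (SE) on the log2 scale, a 6.10-fold difference (adjusted p = 1.93e-08).

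XTH32, a xyloglucan endotransglucosylase/hydrolase that cuts and rejoins a hemicellulose of the cell wall, had signals of 59.0 and 53.9 untreated, 190 and 293 on replete medium, and 202 and 382 on sulfate-free medium. Both B arrays at 2 h were higher than both A arrays. The log2 difference was 1.99 ± 0.20 (adjusted p = 1.51e-05). AT5G52050, with a larger rise than PRN, has its locus number as symbol and DTX50, Detoxification Efflux Carrier 50, as a synonym. It is a transporter of the MATE family, with dim signals of 3.34 and 2.92 in untreated roots. These lie below the 25th percentile of every one of the 6 arrays (9.54 to 10.7), so that an untreated level above background is not shown. At 2 h the signals were 194 and 154 (replete) and 162 and 205 (sulfate-free). The log2 difference of AT5G52050 was 3.74 ± 0.28 (adjusted p = 6.72e-07), and with a pseudocount of 1 in place of 11 it was 5.44.

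The remaining 12 of the 15 largest rises carry only a locus number, with no descriptive synonym, in the annotation used here, and no role is given for them. The largest was AT5G62360, with 2.75 and 5.06 in untreated roots and, after 2 h, 166 and 335 on replete and 98.2 and 400 on sulfate-free medium. Its untreated values are also below the arrays' 25th percentile, and both of its B arrays at 2 h were well above both of its A arrays. The log2 difference was 3.95 ± 0.35 (adjusted p = 4.33e-06, 5.51 with a pseudocount of 1).

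AT2G38240 went from 11.6 and 7.22 untreated to 280 and 257 on replete and 223 and 352 on sulfate-free medium. AT4G22610 was measured well above the low end in every array: 41.0 and 36.0 untreated, 671 and 536 replete, 615 and 676 sulfate-free. In both genes the 4 arrays at 2 h stood together, far from the untreated arrays. Their log2 differences were 3.81 ± 0.28 (adjusted p = 6.24e-07, and 4.76 with a pseudocount of 1) and 3.68 ± 0.15 (adjusted p = 1.48e-09).

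AT5G16010 was the brightest of the 15 at 2 h. It had 188 and 196 untreated, 1369 and 1220 on replete and 1365 and 1326 on sulfate-free medium, so that the SD over the 4 arrays at 2 h, 69.2, was small beside a difference of group means from 192 to 1320. The log2 difference was 2.71 ± 0.12 (adjusted p = 1.8e-09). AT4G18280 rose from 18.6 and 14.6 to between 189 and 224 (log2 difference 2.97 ± 0.17), and AT1G72140 from 107 and 134 to between 584 and 918 (2.46 ± 0.14). AT1G68500, AT3G13650, AT4G30650, AT1G16850, AT1G30760 and AT1G19380 rose by log2 differences between 2.00 and 2.52. Of these, AT1G16850 was dim enough to be left out by a filter at the 40th percentile of mean signal. Its log2 difference was 3.25 with a pseudocount of 1 and 1.04 with a pseudocount of 44. All 15 were called under every alternative they could be tested in, each of the 6 left-out arrays included.

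**Figure D3:**
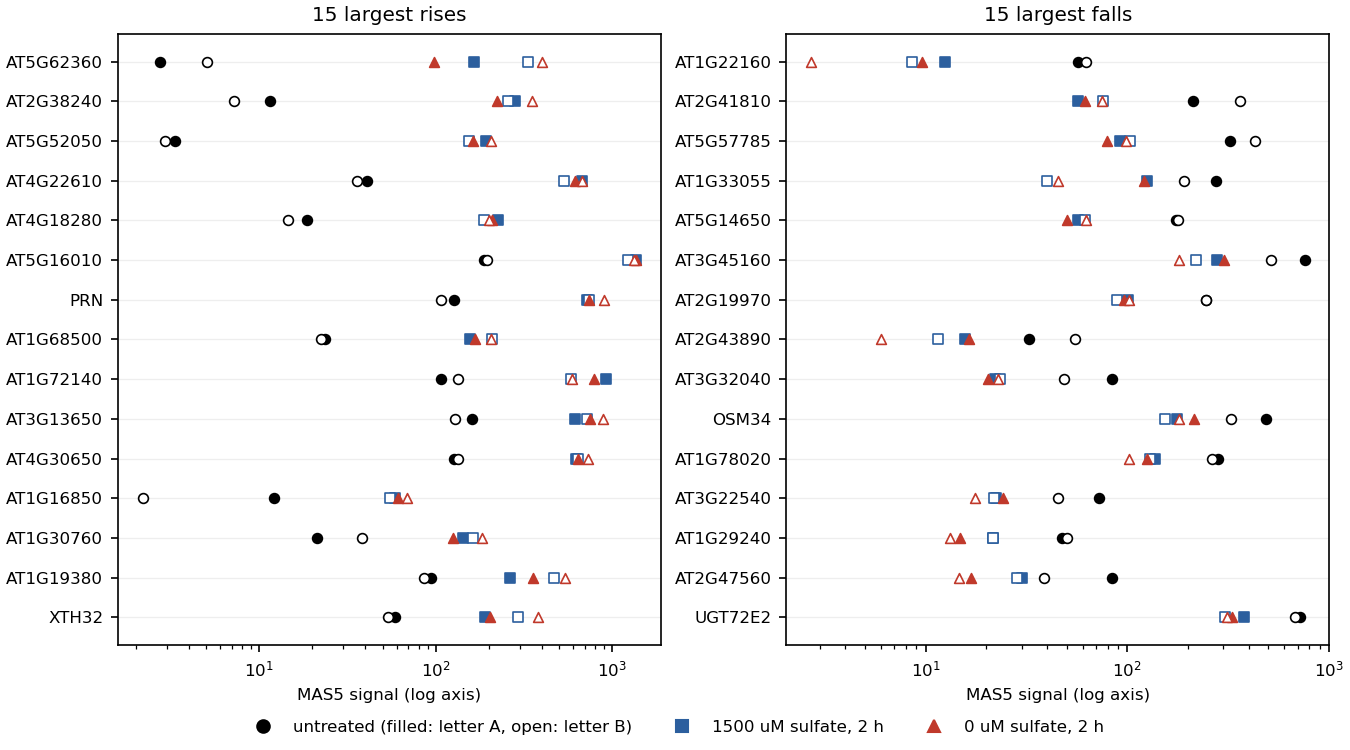
MAS5 signal of each of the 6 arrays on a log axis for the 15 largest rises (left) and the 15 largest falls (right); black circles are untreated, blue squares replete and red triangles sulfate-free roots, filled for letter A and open for letter B. For AT5G16010 the untreated arrays lie at 188 and 196 and the arrays at 2 h between 1220 and 1369. All 30 genes were chosen so that the 4 arrays at 2 h lie on 1 side of both untreated arrays.

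A wider set of genes with symbols was drawn after the values had been seen, under the same conditions on call, brightness and separation as the 15 largest. It held 73 rises and 34 falls, and examples from the 20 largest of each are given here. Of the 20 largest rises AR781 and HOS3-1, and of the 20 largest falls DLAH, ZCF37, GT2 and CYP71B28, are not described further. Each was called but lost the call when 1 or more of the 6 arrays was left out. The same held for other genes among the 20 largest of each, which are described with that limit. NAMT1, a nicotinate methyltransferase, had 24.8 and 12.3 in untreated roots, 108 and 80.9 on replete and 120 and 94.0 on sulfate-free medium. Its log2 difference was 1.94 ± 0.12 (adjusted p = 1.64e-07). AZG1, a purine transporter, was at 99.7 and 94.8 untreated, 212 and 233 replete, and 234 and 292 sulfate-free (1.22 ± 0.12, adjusted p = 1.36e-05). The groups of neither gene overlapped, which was a condition of the choice.

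BGLU25, a beta glucosidase, had 188 and 163 untreated, 422 and 344 replete and 371 and 367 sulfate-free (1.05 ± 0.11, adjusted p = 2.01e-05). WNK9, a protein kinase, had 43.7 and 37.3 untreated and between 82.6 and 105 at 2 h (1.03 ± 0.14, adjusted p = 0.000296). YLS5, listed as DJ-1e, had 190 and 203 untreated and between 348 and 458 at 2 h (1.01 ± 0.12, adjusted p = 0.000113). These 5 genes kept the call without each array in turn. GRX480, a glutaredoxin, was at 13.3 and 20.2 untreated and between 38.8 and 57.9 at 2 h (1.09 ± 0.21, adjusted p = 0.00414, and 0.12 without untreated array A). ATL8, a RING ubiquitin ligase, was at 35.7 and 17.8 untreated and between 59.7 and 139 at 2 h (1.57 ± 0.31, adjusted p = 0.00634, and 0.078 and 0.077 without untreated arrays A and B).

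The falls were smaller, and the largest again lay in genes with no symbol. AT1G22160 had 57.3 and 62.4 in untreated roots, 12.4 and 8.55 on replete and 9.62 and 2.69 on sulfate-free medium. At 2 h its signal lay near or below the arrays' 25th percentile. The log2 difference was −1.90 ± 0.18 (adjusted p = 9.42e-06, and −2.85 with a pseudocount of 1).

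AT2G41810 fell from 213 and 361 to 56.7 and 75.4 on replete and 61.8 and 74.9 on sulfate-free medium (log2 difference −1.89 ± 0.19, adjusted p = 1.74e-05). AT5G57785 fell from 323 and 432 to 92.4 and 104 on replete and 79.6 and 98.2 on sulfate-free medium (−1.89 ± 0.13, adjusted p = 4.3e-07). In both genes the 2 untreated arrays differed more from each other than the 4 arrays at 2 h did, yet the groups were far apart. AT3G45160 was brighter, at 758 and 518 untreated, and stood between 181 and 303 at 2 h (−1.34 ± 0.14, adjusted p = 2.1e-05).

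UGT72E2, a glucosyltransferase that acts on monolignols, the building blocks of lignin, had 718 and 680 untreated, 379 and 307 on replete and 331 and 312 on sulfate-free medium. The 4 arrays at 2 h were all well below both untreated arrays, and the difference was 2.08-fold (log2 difference −1.05 ± 0.15, adjusted p = 0.000439). OSM34, an osmotin, a small defence protein of the thaumatin family, had 490 and 328 untreated and between 154 and 215 at 2 h (−1.11 ± 0.24, adjusted p = 0.0112). Without untreated array A its adjusted p was 0.29.

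Of the other 9 of the 15 largest falls, AT1G78020 and AT1G29240 kept the call without each array in turn, with log2 differences of −1.08 ± 0.08 and −1.07 ± 0.13. AT3G22540 fell by 1.08 ± 0.17 (adjusted p = 0.000876, and 0.053 without untreated array A). AT2G19970 fell by 1.25 ± 0.24 and AT3G32040 by 1.18 ± 0.20, with adjusted p = 0.14 and 0.12 without untreated array A. AT2G43890 fell by 1.23 ± 0.21 (adjusted p = 0.082 without untreated array B).

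AT5G14650 had steady untreated signals of 175 and 178 and between 50.3 and 62.4 at 2 h, but varied widely elsewhere in the time course. Its log2 difference was −1.45 ± 0.36 (adjusted p = 0.0267), and its adjusted p lay between 0.056 and 0.27 when any 1 of the 6 arrays was left out. AT2G47560 fell by 1.07 ± 0.24 (adjusted p = 0.0148), with adjusted p = 0.42 without untreated array A and 0.052 without sulfate-free array B. AT1G33055, placed in the low oxygen list, is described with that list.

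Examples from the 20 largest falls with symbols, chosen after their values were seen, follow. BAT1 had 355 and 298 untreated, 195 and 176 replete and 141 and 169 sulfate-free (log2 difference −0.90 ± 0.11, adjusted p = 8.05e-05). GAMMA-VPE, a vacuolar processing enzyme that matures and degrades vacuole proteins, had 1356 and 1244 untreated and between 615 and 915 at 2 h (−0.78 ± 0.12, adjusted p = 0.00104). CYN, a cyanase, which breaks down cyanate, had 394 and 326 untreated and between 213 and 286 at 2 h (−0.51 ± 0.08, adjusted p = 0.000693).

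CYP71B34, a cytochrome P450, had 68.5 and 68.3 untreated and between 28.5 and 43.5 at 2 h (−0.75 ± 0.12, adjusted p = 0.00103). These 4 genes kept the call without each array in turn. SIM (SIAMESE), an inhibitor of the cell division cycle, had 482 and 448 untreated and between 294 and 348 at 2 h (−0.56 ± 0.11, adjusted p = 0.00634, and 0.17 without untreated array A).

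Probe sets with no gene in the annotation included changes as large as any named gene. The largest rise on the array was that of 248337_at, from 56.4 and 41.9 untreated to 1269 and 1335 on replete and 1139 and 1327 on sulfate-free medium (log2 difference 4.42 ± 0.16, adjusted p = 4.43e-10). The probe set 247175_at rose from 83.0 and 68.6 to between 775 and 961 (3.35 ± 0.11, adjusted p = 2.22e-10). The largest falls without a gene were those of 261569_at, from 503 and 430 to between 84.6 and 130 (−2.02 ± 0.21, adjusted p = 2.3e-05), and 266719_at, from 382 and 209 to between 61.1 and 80.8 (−1.88 ± 0.21, adjusted p = 3.86e-05).

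Gene lists for pathways that transfer could touch held few measured members, because the annotation names only part of the array: of 638 entries in 25 lists, 108 were measured, and 4 lists (ethylene, phosphate, endodermis, and xylem and phloem) had none. Another 14 lists were drawn from the symbols that the annotation does give. Counts below are to be read against 2.76% of genes that rose and 1.95% that fell, and against 10.1% and 14.2% of probe sets in which all 4 arrays at 2 h lay above, or below, both untreated arrays. Members and lists were chosen with earlier results of these data known, so the counts are descriptions and not independent tests.

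Of 5 measured early stress transcription factors, 2 rose and none fell, with a median log2 difference of 0.38. WRKY22, which acts downstream of immune receptors, had 30.8 and 35.8 untreated, 102 and 127 replete and 82.8 and 132 sulfate-free. No array at 2 h came near the untreated arrays, and WRKY22 rose by 1.44 ± 0.18 (adjusted p = 0.000112). WRKY6, a factor of senescence and defence, had 125 and 127 untreated and between 191 and 261 at 2 h (0.75 ± 0.13, adjusted p = 0.00212, and 0.10 without untreated array A). STZ, a zinc finger repressor of the stress response, ranged from 85.0 to 173 untreated and from 104 to 267 at 2 h, so its groups overlapped and its difference of 0.38 ± 0.48 was within its error. BZIP60, a factor of the unfolded protein response, differed by 0.10 ± 0.10 (adjusted p = 0.723).

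In the immune and damage list 3 of 5 measured genes rose. BIK1, a cytoplasmic kinase that passes on signals from immune receptors, had 113 and 131 untreated, 217 and 207 replete and 214 and 217 sulfate-free. Its arrays at 2 h lay close together and above both untreated arrays, and it rose by 0.76 ± 0.11 (adjusted p = 0.000447). PUB22 and PUB23 are U-box ubiquitin ligases that damp immune signalling. PUB22 had 101 and 106 untreated and between 180 and 242 at 2 h (0.87 ± 0.18, adjusted p = 0.00821), and PUB23 had 161 and 193 untreated and between 242 and 339 at 2 h (0.76 ± 0.18, adjusted p = 0.0193). Without untreated array A their adjusted p were 0.15 and 0.37, and PUB23 also passed the threshold neither without sulfate-free array B (0.067) nor without replete array A (0.066). The related PUB24 stood at 49.1 ± 5.71 (SD, n = 2) untreated and 50.3 ± 7.01 (n = 4) at 2 h. Of 9 U-box ligases in all, 3 rose (the third was PUB43, by 0.51 ± 0.11, adjusted p = 0.29 without untreated array A and 0.058 without sulfate-free array B), and the median of the 9 was 0.03.

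Of 12 calcium sensors and touch genes 2 rose and 5 had an unadjusted p under 0.05, with a median of 0.18. CML42, a calmodulin-like calcium sensor, had 183 and 179 untreated, 239 and 291 replete and 255 and 332 sulfate-free (0.59 ± 0.12, adjusted p = 0.0065, and 0.12 without untreated array B). CML37, another calmodulin-like protein, was called (0.87 ± 0.23, adjusted p = 0.0419), but both untreated signals (3.53 and 0.703) and both replete signals (8.83 and 5.02) were below the arrays' 25th percentile. Its adjusted p lay between 0.064 and 0.24 when any 1 of the 6 arrays was left out. In 5 of the 12, all 4 arrays at 2 h lay above both untreated arrays.

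Neither of the 2 jasmonate genes measured passed the threshold. OPCL1, a ligase of jasmonate synthesis, had 91.0 ± 21.0 (SD, n = 2) untreated and 96.0 ± 18.1 (n = 4) at 2 h, and JMT, which makes methyl jasmonate, was below the arrays' 25th percentile in all 6 arrays.

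In the oxidative stress and detoxification list 3 of 6 genes rose, with a median of 0.71. UGT73B4 and UGT73B5 are glycosyltransferases of the stress response. UGT73B4 had 8.87 and 23.8 untreated, 48.9 and 78.5 replete and 67.1 and 77.4 sulfate-free (1.57 ± 0.14, adjusted p = 6.48e-06). UGT73B5 had 36.0 and 33.8 untreated and between 67.1 and 115 at 2 h (1.02 ± 0.15, adjusted p = 0.000513). Both kept the call without each array in turn. NDB2, an external NAD(P)H dehydrogenase of mitochondria, rose by 0.84 ± 0.18 (adjusted p = 0.00973, and 0.23 without untreated array A).

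Over the whole family of UDP-glycosyltransferases, which attach sugars to hormones, toxins and metabolites, 9 of 47 rose and 1 fell, with a median of 0.09. The members that rose were UGT73B4, UGT73B1, UGT73B5, UGT84A4, UGT74D1, UGT71C3, UGT73D1, UGT87A2 and UGT74B1, with log2 differences from 1.57 down to 0.51, and the member that fell was UGT72E2. UGT84A4 had 103 and 79.8 untreated and between 165 and 184 at 2 h (0.89 ± 0.13, adjusted p = 0.00063). UGT73B1 had 37.2 and 81.0 untreated and between 125 and 152 at 2 h, and its difference of 1.13 ± 0.21 (adjusted p = 0.00364) was not called without untreated array A (0.11). Without that array 5 rose and 1 fell.

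Of 14 glutathione transferases, which conjugate toxins, 1 rose and 1 fell, 9 differences were below 0, and the median was −0.13. GSTU22 had 352 ± 43.3 (n = 2) untreated and 714 ± 74.2 (n = 4) at 2 h, and GSTU23 had 89.4 ± 3.46 and 50.3 ± 7.03. GSTU22 rose by 0.997 ± 0.15 (adjusted p = 0.000807, and 0.053 without untreated array A) and GSTU23 fell by 0.72 ± 0.10 (adjusted p = 0.000296). The other 12 of the 14 did not pass the threshold. Among 14 SWEET sugar transporters 1 rose: SWEET16, which carries sugars across the vacuole membrane, had 277 and 231 untreated, 477 and 521 replete and 522 and 579 sulfate-free (1.02 ± 0.13, adjusted p = 0.000154). Its relative SWEET17 stood at 623 ± 4.77 and 668 ± 51.9.

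**Figure D4:**
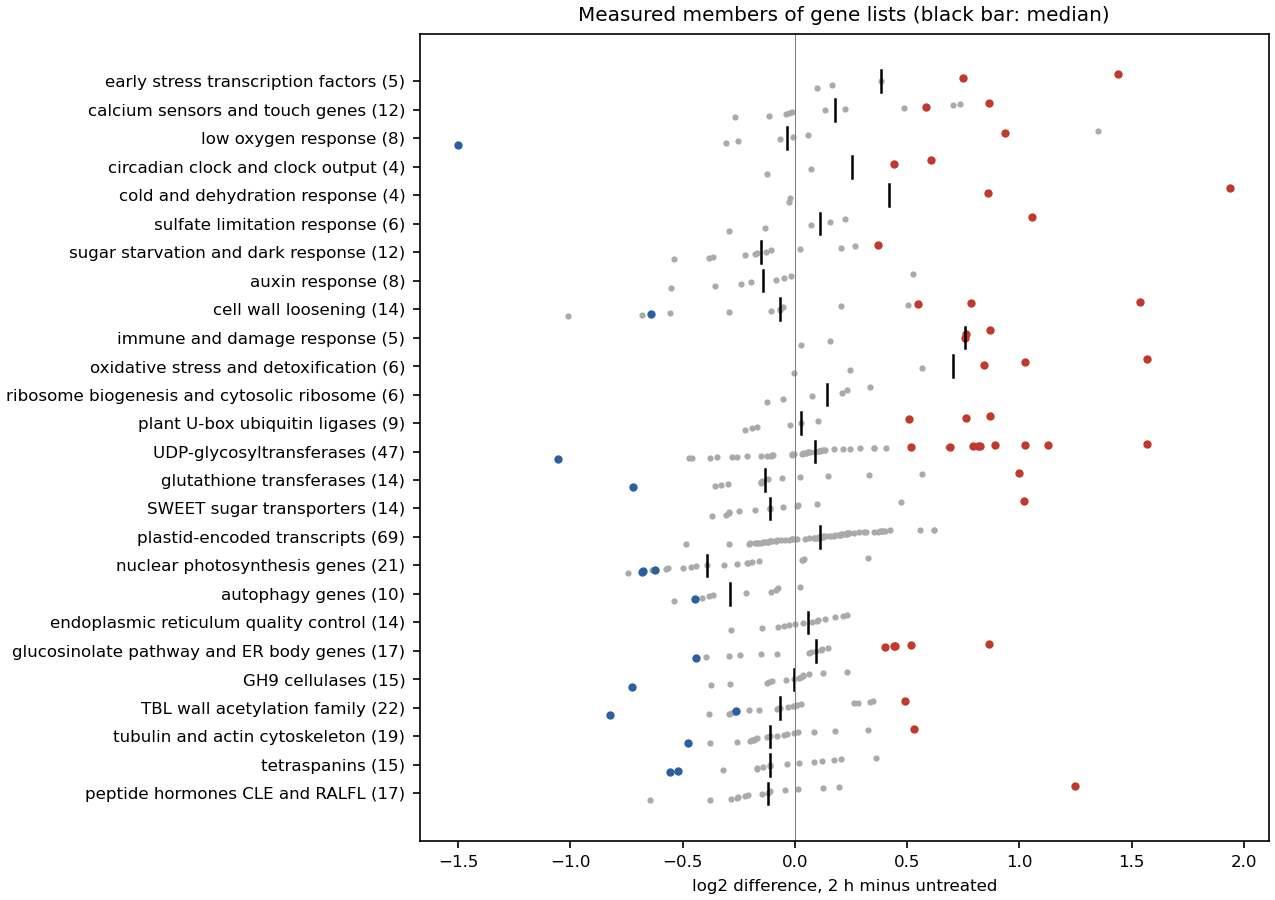
Each point is 1 measured gene of a list, placed at its log2 difference between 2 h after transfer and untreated roots; red genes rose, blue genes fell, grey genes did not pass an adjusted p of 0.05, and the black bar is the median of the list (lists with at least 4 measured genes, their number in brackets). The medians of the UDP-glycosyltransferases (0.09) and of the plastid-encoded transcripts (0.11) lie near 0, and that of the nuclear photosynthesis genes at −0.39.

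Of 4 measured genes of the cold and dehydration list 2 rose, both of them dehydrins, proteins that accumulate in cold and dry cells. LTI30 had 779 and 764 untreated, 3576 and 3112 on replete and 2769 and 2587 on sulfate-free medium. It rose by 1.94 ± 0.11 (adjusted p = 6.81e-08). COR47 had 1701 and 1606 untreated, 3530 and 3191 replete and 2800 and 2609 sulfate-free (0.86 ± 0.10, adjusted p = 4.29e-05). In both dehydrins the replete arrays were higher than the sulfate-free arrays, but the media difference, −0.32 and −0.31, did not pass the threshold. COR15A and COR15B, cold-regulated proteins of the plastid, were at 15.7 or below in all 6 arrays.

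Of 4 clock genes 2 rose. GI (GIGANTEA), a component of the circadian clock that peaks late in the day, had 145 and 180 untreated, 234 and 287 replete and 209 and 285 sulfate-free (0.60 ± 0.12, adjusted p = 0.00519, and 0.13 without untreated array A). It stood at a mean signal of 361 at 4 h and 118 at 12 h. AT5G52660, placed in the clock list, rose by 0.44 ± 0.11 (adjusted p = 0.0324), and its adjusted p lay between 0.053 and 0.34 when any 1 of the 6 arrays was left out. The part of the time of day in any other result was not tested.

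In the low oxygen list 1 of 8 genes rose and 1 fell. PDC2, a pyruvate decarboxylase of ethanol fermentation, had 46.4 and 66.7 untreated, 103 and 119 replete and 100 and 151 sulfate-free (0.94 ± 0.11, adjusted p = 6.54e-05). Its mean signal was higher still at 8 h (375) and 12 h (366) and was 61.9 at 24 h. AT1G33055 had 274 and 190 untreated and split by letter at 2 h, with 126 and 121 in the A arrays and 39.8 and 45.5 in the B arrays. Its log2 difference was −1.50 ± 0.36 (adjusted p = 0.0223), and leaving out untreated array A, untreated array B, sulfate-free array B or replete array B gave adjusted p between 0.087 and 0.21. AT1G19530 was higher by 1.35 and did not pass (adjusted p = 0.149).

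The sulfate list showed 1 rise among 6 genes. AT1G04770 had 77.8 and 103 untreated, 127 and 163 on replete and 258 and 286 on sulfate-free medium. The order untreated, replete, sulfate-free held without overlap, but the media difference of 0.87 did not pass the threshold (adjusted p = 0.999894). Pooled over media AT1G04770 rose by 1.06 ± 0.18 (adjusted p = 0.00209, and 0.10 without untreated array A). On replete medium alone it was not called (adjusted p = 0.145), nor in a fit of the 6 arrays alone (0.0992). APS4, an ATP sulfurylase, which starts sulfate assimilation, was at 1585 ± 4.98 (n = 2) and 1444 ± 20.4 (n = 4), a difference of −0.13 that did not pass. In limma's fit none of the measured genes in the iron (2), nitrate (3), auxin (8) or cytokinin (2) lists passed, and 0, 1, 3 and 0 of them had an unadjusted p under 0.05. The auxin genes had 7 of 8 differences below 0, with a median of −0.14. Among 12 sugar starvation genes BZIP53, a transcription factor of the energy response, rose by 0.37 ± 0.07 (adjusted p = 0.00672), with adjusted p = 0.12 and 0.052 without untreated arrays A and B.

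Cell wall genes moved both ways. Of 14 wall loosening genes 3 rose and 1 fell, with a median of −0.07. XTH32, described above with a larger rise than any of these, is not in this list. XTH20, a xyloglucan endotransglucosylase/hydrolase, had 48.1 and 63.5 untreated, 164 and 200 replete and 133 and 247 sulfate-free (1.54 ± 0.33, adjusted p = 0.0102, and 0.14 and 0.072 without untreated arrays A and B). XTH19, of the same family, had 177 and 187 untreated and between 93.2 and 148 at 2 h, and fell by 0.64 ± 0.12 (adjusted p = 0.00452, and 0.17 without untreated array A). XTH20 and XTH19 thus moved in opposite directions in all 4 arrays.

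The expansin-like genes EXLA1 and EXLA2 rose by 0.55 ± 0.12 and 0.78 ± 0.18 (adjusted p = 0.0156 and 0.0144). Without untreated array A their adjusted p were 0.32 and 0.085, and EXLA2 also missed the threshold without untreated array B (0.18), sulfate-free array B (0.059) or replete array B (0.057). EXPA15, an expansin, which loosens growing walls, had 796 and 680 untreated, 292 and 521 replete and 233 and 470 sulfate-free. All 4 arrays at 2 h were below both untreated arrays, but the difference of −1.01 ± 0.37 did not pass (adjusted p = 0.152). GH9B13, a cellulase, fell by 0.73 ± 0.15 (adjusted p = 0.00662, and 0.17 without untreated array A), and the other 14 cellulases measured did not pass. TBL36, of the family that acetylates wall sugars, fell by 0.82 ± 0.17 (adjusted p = 0.00722, and 0.14 without untreated array A), and of the 22 family members 1 rose and 2 fell. The rise, of TBL45, was lost when any 1 of the 6 arrays was left out (adjusted p between 0.072 and 0.38), and the other fall, of TBL39, when any but sulfate-free array A was (0.075 to 0.27). By limma 0 of the 22 were called without untreated array A, and 0 without the letter factor; at an unadjusted p under 0.05 with all arrays there were 8.

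Of 19 tubulin and actin genes 17 did not pass, 14 of the 19 differences were below 0, and the median was −0.11. TUA1, an alpha tubulin, rose by 0.53 ± 0.12 and TUB1, a beta tubulin, fell by 0.47 ± 0.10 (adjusted p = 0.0126 and 0.00804). Without untreated array A neither was called (0.28 and 0.11), and TUB1 was not called without untreated array B (0.077).

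Genes of the glucosinolate pathway and of ER bodies, the enzyme stores of roots of the cabbage family, had 5 rises and 1 fall among 17, with a median of 0.09. NAI1, the transcription factor that controls ER bodies, had 187 and 173 untreated, 286 and 346 replete and 416 and 313 sulfate-free (0.87 ± 0.15, adjusted p = 0.00291). UGT74B1, a glucosyltransferase of glucosinolate synthesis, rose by 0.51 ± 0.11 (adjusted p = 0.00861), and the glucosinolate transporters GTR1 and GTR2 by 0.44 each (adjusted p = 0.0167 and 0.00869). The ER body protein NAI2 rose by 0.40 (adjusted p = 0.0141). MYC4, a transcription factor of jasmonate signalling that acts on these genes, fell by 0.44 ± 0.10 (adjusted p = 0.0194). Without untreated array A none of these 6 was called, and without untreated array B 3 of the rises were and the fall was not. GTR1 and MYC4 also missed the threshold without sulfate-free array B (0.069 and 0.058). The same held for GTR1 without replete array B (0.069) and for MYC4 without replete array A (0.064). The main ER body enzyme, PYK10, a beta glucosidase, was at 3476 ± 13.9 (n = 2) and 2968 ± 543 (n = 4) and did not pass (adjusted p = 0.453).

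Of the 25 markers of green tissue 3 were measured and 1 of them fell at 2 h. None was at 0, and their summed signal was between 432 and 486 in untreated arrays and between 287 and 335 at 2 h. RCA, rubisco activase, had 209 and 284 untreated, 137 and 178 replete and 132 and 176 sulfate-free. It fell by 0.62 ± 0.14 (adjusted p = 0.0118, and 0.096 and 0.13 without untreated arrays A and B). The light-harvesting genes LHCB4.1 and LHCB4.2 were lower by 0.44 ± 0.17 and 0.74 ± 0.23 and did not pass, although in both all 4 arrays at 2 h lay below both untreated arrays. In bulk roots, fewer cells of a type and less RNA per cell cannot be told apart.

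Among 21 nuclear genes of photosynthesis, which include RCA, LHCB4.1 and LHCB4.2, none rose and 3 fell, 17 differences were below 0, and the median was −0.39. In 11 of the 21 all 4 arrays at 2 h lay below both untreated arrays, and the summed signal was 1319 to 1409 untreated and 883 to 1026 at 2 h. LIL3:2, a light-harvesting-like protein of chlorophyll synthesis, had 132 and 164 untreated, 77.5 and 97.9 replete and 86.1 and 91.2 sulfate-free, and kept the call without each array in turn (−0.68 ± 0.11, adjusted p = 0.00105). PSAN, a subunit of photosystem I, fell by 0.68 ± 0.18 (adjusted p = 0.0385), with adjusted p between 0.13 and 0.24 without untreated array A or B, sulfate-free array B or replete array B. Without either untreated array 1 of the 21 fell. Of the 69 transcripts encoded in the plastid, 0 rose and 0 fell in limma's fit, 4 had an unadjusted p under 0.05, and the median was 0.11. The difference between these lists was not tested. The part of green tissue in the other results was not tested.

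The measured markers of other cell types did not pass: the root hair expansins EXPA7 and EXPA18 (0.02 and 0.42), the kinases AUR1 and AUR2 of dividing cells (−0.27 and −0.15) and PUCHI of lateral root primordia (−0.03). The root hair markers EXPA7 and EXPA18 had signals between 90.7 and 212 in all 6 arrays. The listed markers of endodermis and of xylem and phloem were not measured under their names, so the label of root was checked by root hair markers alone. Of 14 genes for quality control in the endoplasmic reticulum and 6 for ribosomes none passed in limma's fit, and 1 and 0 had an unadjusted p under 0.05. Of 10 autophagy genes 9 were below 0 with a median of −0.29, and ATG8C, a protein of autophagosome membranes, fell by 0.44 ± 0.10 (adjusted p = 0.0185, and 0.17 and 0.13 without untreated arrays A and B, and 0.072 without sulfate-free array B). Without replete array A it was 0.050.

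Of 15 tetraspanins, membrane proteins that organise membrane domains, TET2 and TET8 fell. TET2 had 210 and 214 untreated and between 137 and 156 at 2 h (−0.52 ± 0.09, adjusted p = 0.00304, and 0.083 without untreated array A). TET8 fell by 0.56 ± 0.15 (adjusted p = 0.0459, and between 0.072 and 0.33 when any 1 of the 6 arrays was left out). Of 17 signalling peptides 1 rose: RALFL31, a peptide of the RALF family, had 50.4 and 49.9 untreated, 125 and 116 replete and 150 and 148 sulfate-free (1.25 ± 0.12, adjusted p = 9.99e-06). RALFL31 kept the call without each array in turn.

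Other choices ended further calls among the 79 called genes and probe sets that the rule named. Without the letter factor 18 were not called: AT1G33055, WRKY6, CML37, AT5G52660, EXLA1, EXLA2, XTH19, PUB23, NDB2, RCA, PSAN, ATG8C, GTR1, GTR2, TBL36, TBL39, TBL45 and TET8. With replete medium alone 17 were not: AT1G33055, AT5G14650, AT2G47560, CML37, AT5G52660, AT1G04770, BZIP53, EXLA1, PUB22, PUB23, PUB43, PSAN, MYC4, GTR1, TBL36, TBL39 and TET8. With sulfate-free medium alone 10 were not: AT1G33055, AT5G14650, OSM34, EXLA2, PSAN, ATG8C, TBL39, TBL45, TUA1 and TET8. Among the further genes with symbols, CYN and ATL8 were not called without the letter factor (adjusted p = 0.085 and 0.066 by limma). GRX480 was not called with replete medium alone (0.060).

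Later arrays of the same series give the levels of the 30 largest genes at later times. These genes were chosen as the extremes at 2 h, so smaller medians at other times are partly built in. No duration is read from the medians. For the 15 rises the median log2 difference from untreated roots was 2.52 at 2 h. It was 1.62 after 4 h, 1.02 after 8 h, 0.999 after 12 h and 0.49 after 24 h. These values share the 2 untreated arrays and are given side by side. PRN was at mean signals of 221, 137, 117 and 161 at 4, 8, 12 and 24 h (n = 4 each), against an untreated mean of 118. AT4G30650, in contrast, stayed at 727, 881 and 739 at 4, 8 and 12 h, about its level at 2 h (659), and was at 232 at 24 h. AT4G22610 declined step by step, with 411, 244, 144 and 88.4.

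The falls had medians of −1.23, −0.92, −0.61, −0.54 and −0.06 at the same times. UGT72E2 was back at 709 at 8 h, against 699 in untreated roots. AT5G14650 passed its untreated mean of 177, with 326 at 8 h and 418 at 24 h. AT1G33055 went further down, to 53.3, 24.0 and 12.6 at 4, 8 and 12 h, and was at 80.7 at 24 h. The unnamed 261569_at took a like course, with 27.7, 11.2 and 9.54 at 4, 8 and 12 h and 491 at 24 h.

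The direct test of 24 h against 2 h, which uses no untreated array but shares the arrays at 2 h by which these genes were chosen, called all 15 rises lower at 24 h and 14 of the 15 falls higher. The background was 4.27% of genes lower and 6.19% higher (5.18% and 6.38% of all probe sets). The exception was AT1G33055, with a difference of 0.11 (adjusted p = 0.87). Since the choice of the genes used the arrays at 2 h, nothing is read from these counts.

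**Figure D5:**
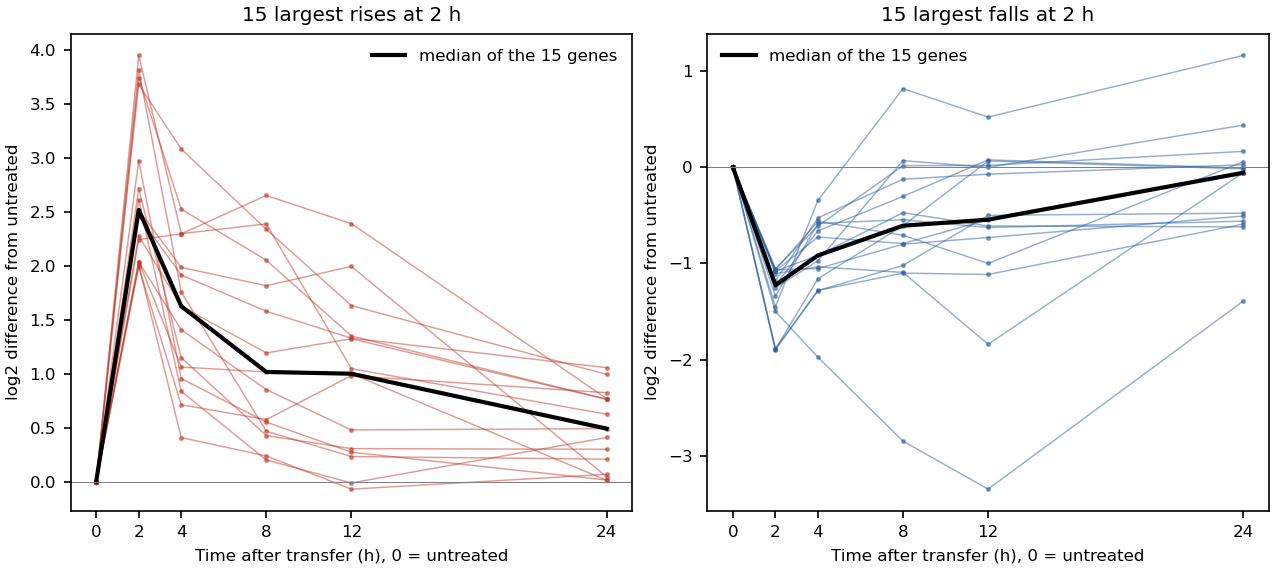
Mean log2 difference from untreated roots (vertical axis) at 2, 4, 8, 12 and 24 h after transfer, media pooled, with untreated roots at 0 h; thin lines are the 15 largest rises (left) and falls (right) at 2 h, and the thick line is their median. The median of the rises goes from 2.52 at 2 h to 0.49 at 24 h and that of the falls from −1.23 to −0.06, and the lowest line on the right is AT1G33055. The genes were chosen by their difference at 2 h, so no duration is read from the medians.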

How the data were processed

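Each RNA sample was read on 1 array. Per the submitters' processing notes, the authors used MAS5 for the deposited probe set intensities. Neither its version nor its scaling target nor a genome build is given in the sources used here, so no coordinates are printed. On each of the 6 arrays compared here the mean was 100.01 once 2% of values had been trimmed from either end. This mean was not computed for the other arrays of the series. No further scaling was applied to any array. Precision is set by the number of arrays.

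Of 22810 probe sets, 64 controls were left out. Values were put on log2(signal + 11), where the pooled median signal was 43.9, and fitted with limma 3.58.1 in R 4.3.3 (lmFit, eBayes with an intensity trend) over all 22 arrays, 11 groups and the letter as a factor, with 10 residual degrees of freedom and a median SE of 0.142. The contrast was the mean of both media at 2 h minus untreated, and p-values were adjusted by Benjamini-Hochberg over 22746 probe sets. The fit was tested on simulated data. The simulated noise was independent between arrays and held no letter effect. That test therefore cannot show how dependence between real arrays affects the p-values. The letter entered as a factor because the rule that set the comparison names it. Differences between letters within groups correlated for all 3 pairs of groups used here (r = 0.452, 0.343 and 0.262). Over all 55 pairs of groups the median r was 0.196 and the lowest −0.0224.

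The annotation lists 1 gene for 13513 probe sets, several for 503 and none for 8730; symbols come from RefSeq TAIR10.1 (13436 matched, 77 kept the annotation's name). The text names the 15 largest called rises and falls that list 1 gene, whose brighter group reaches the pooled median and whose arrays at 2 h lie outside the untreated range, the 2 largest of each without a gene, and for each list up to 5 called and 2 bright uncalled members. Members and lists were chosen with earlier results of these data known. Alternatives covered pseudocount, filter, scaling, letter, variance model, media and each array. No sequence was available, and promoter motifs were not analysed here.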

Additional observations from a re-analysis of the deposited data

Results flagged for a closer look

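Of 143 named genes, 5 had 1 array at 2 h that stood apart from the other 3 by Dixon's test, which chance flags in about 1 in 20 groups. In PRN, sulfate-free array B was highest at 900.02. In PUB22, sulfate-free array B was highest at 242.4. In PUB23, replete array B was lowest at 242.4. In TUA6, an alpha tubulin that did not pass the threshold, replete array B was highest at 1374. In JMT, replete array A was highest at 5.49, below that array's 25th percentile of signal (9.89).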

How the results depend on the processing

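The replicate block is the letter factor; without it 488 probe sets were higher and 231 lower, against 743 and 512. With replete medium alone 263 were lower. Leaving out 1 array gave from 314 to 657 higher and from 97 to 409 lower, the fewest without untreated array A, where 306 of the 743 and 86 of the 512 were still called. The other alternatives kept both counts within 1.5 times. With the letter factor kept and a block of time and letter added to it, 713 were higher and 460 lower. Adding that block changed the call of 1 of the 143 named genes. No named gene changed direction past the threshold under any alternative. Of the 79 called among them, 18 lost the call without the letter factor, 17 with replete medium alone, 39 without untreated array A and 18 without untreated array B. No array left out moved a called fold by over 1.5 times. Pseudocounts of 1 and 44 changed the call of 0 and 2. Causes were not tested. Signals under the arrays' 25th percentile (9.54 to 10.7) limit what the dimmest genes can show.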
